A study of Mus musculus with 24 samples.

Results

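The proteasome genes described here are the genes whose symbol begins with Psma, Psmb, Psmc, Psmd, Psme, Psmf or Psmg followed by a digit, each read from whichever of its probe sets had the highest mean across the 24 arrays. The rule matched 47 of the 17097 genes measured. Of these, 45 encode subunits, regulators or assembly chaperones of the proteasome and are counted below. The other 2, Psmc3ip and Psme3ip1, encode proteins named after a proteasome partner, are no subunits, and are given apart. The rule used symbols and mean levels, not differences between groups. The 45 genes comprised 8 genes of the alpha ring, 4 non-catalytic genes of the beta ring, the 3 constitutive catalytic subunits Psmb5, Psmb6 and Psmb7, the 3 immunoproteasome subunits Psmb8, Psmb9 and Psmb10, and the thymoproteasome subunit Psmb11. They also comprised 16 genes of the 19S regulatory particle, 2 chaperones of that particle, the 4 chaperones Psmg1 to Psmg4 of the 20S core, 3 activators and the regulator Psmf1. Psmc6, Psmd10 and Psme4 were not analysed here.

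RNA was profiled on Affymetrix HT MG-430 PM arrays in mouse T cells sorted as CD4+CD62LhiCD44loCD25-, that is naive CD4 T cells, from spleen and peripheral lymph nodes. The cells came from wild-type (WT) mice, with the strain given as C57BL/6, or from CD4(cre)Raptor(fl/fl) mice, in which the Cd4 promoter drives Cre recombinase in T cells and Cre deletes floxed Raptor. The latter are called Raptor-deficient below. For each genotype the cells were used directly (unstimulated) or after 8 h or 24 h on plate-bound antibodies to CD3 and CD28, with 4 arrays in each of the 6 groups. The labels do not say whether WT mice carried Cre, give no age, and name no animal for any sample. The p-values below therefore reflect only how much these samples varied, which may be technical. Raptor is the scaffold that sets mTORC1, a growth-control kinase complex, apart from mTORC2, and the study asked how its loss changes the response of T cells to stimulation.

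The proteasome degrades proteins tagged with ubiquitin. Its 20S core is a barrel of stacked rings, in which alpha subunits form the outer rings and gate the entrance, and beta subunits form the inner rings that hold the proteolytic sites. Psmb6, Psmb7 and Psmb5 carry the caspase-like, trypsin-like and chymotrypsin-like sites. In lymphocytes, and in other cells exposed to interferon-gamma, Psmb9, Psmb10 and Psmb8 can take their places, which gives the immunoproteasome and favours peptides suited to class I antigen presentation. The 19S particle caps the core. Its base of ATPases unfolds substrates, and its lid removes ubiquitin. Psme1 and Psme2 form an alternative, interferon-inducible 11S cap, and Psme3 forms a nuclear one.

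Promoter sequences of the catalytic subunits are shown because the constitutive and the immunoproteasome genes behaved differently below. RefSeq promoter entries (GRCm38.p6, 300 bases, from 250 before to 50 after a gene's start) were matched by symbol for 37 of the 45 genes, and Psmb7 is named only. The stretches below are written 5′ to 3′ on the gene's strand and end at the base before the start used in that table. Capitals mark the antioxidant response element core TGACNNNGC in Psmb5 and Psmb6, a gamma-activated site TTCNNNGAA in Psmb8, and a CCAAT box, read on the opposite strand, in Psmb9. The Psmb5 stretch lies at chr14:54617996-54618095 on the minus strand, and the Psmb6 stretch, which lies inside the annotated gene, at chr11:70525327-70525356 on the plus strand. The Psmb8 stretch lies at chr17:34198095-34198194 on the plus strand and the Psmb9 stretch at chr17:34187331-34187430 on the minus strand, both upstream of the annotated genes. The Psmb10 stretch lies at chr8:105938393-105938492 on the minus strand and holds none of the motifs searched, so it has no capitals.
Psmb5: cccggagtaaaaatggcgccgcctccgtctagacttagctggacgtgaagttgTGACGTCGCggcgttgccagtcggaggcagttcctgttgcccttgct
Psmb6: acagaggcggactaaagagagTGACGGAGC
Psmb8: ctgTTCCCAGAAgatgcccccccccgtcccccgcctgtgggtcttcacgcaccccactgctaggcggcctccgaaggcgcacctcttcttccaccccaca
Psmb9: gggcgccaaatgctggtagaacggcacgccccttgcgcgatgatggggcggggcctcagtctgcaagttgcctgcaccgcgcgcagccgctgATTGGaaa
Psmb10: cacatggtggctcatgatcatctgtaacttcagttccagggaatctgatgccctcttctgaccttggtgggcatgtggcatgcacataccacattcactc
Each motif was searched on both strands of the whole entry, and no match overlapped a match of another motif in the stretches shown. TGACNNNGC stood in 4 of the 37 entries (Psmb5, Psmb6, Psmd9 and Psmd12), which is 10.8%, against 14.0% of 27025 genes with an entry. The interferon-stimulated response element core (GAAA, any 2 bases, GAAA) stood in 5 (Psme1, Psmd9, Psmd4, Psmg4 and Psmb3), which is 13.5%, against 4.0% of all genes. TTCNNNGAA stood in 3 (Psmb8, Psmg1 and Psmd2), 8.1% against 9.6%, CCAAT in 13, 35.1% against 41.1%, and the NF-kappaB consensus in 5, 13.5% against 9.6%. Neither response element core was found in the entries of Psmb8, Psmb9 and Psmb10. A match is a description of letters, and none of these shares was tested.

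The arrays held RMA values on a log2 scale with medians of 5.15 to 5.29. Cd4 averaged 9.90 to 11.2 and Cd3e 10.6 to 10.9 over the groups, and all 9 CD4 T cell markers measured lay above the median of all gene values, 5.51, in every group. Lyz2, a myeloid marker, averaged 3.19 to 3.74. By group, 11 to 14 of 14 myeloid, 6 to 10 of 13 B cell and 8 to 10 of 11 NK cell markers lay below the gene median. So did 3 or 4 of 7 dendritic cell markers and 1 of 3 erythroid markers. Neither of the 2 CD8 T cell markers lay below it in any group, with Cd8a averaging 5.65 to 6.42. Rptor, which encodes Raptor, had levels of 7.04, 7.49, 7.19 and 7.39 in unstimulated WT and of 5.92, 7.37, 6.55 and 6.79 in unstimulated Raptor-deficient cells. Replicate 2 of the latter lay inside the WT range, and the difference of -0.62 was not called (limma, adjusted p = 0.0750). On the mean of all Rptor probe sets it was -0.60 (adjusted p = 0.00250). All Raptor-deficient arrays lay below all WT arrays at 8 h, by 1.01, and at 24 h, by 0.64 (adjusted p = 0.000292 and 0.0109). Whether the probes lie in the deleted part was not analysed here. The unstimulated Raptor-deficient group was the most scattered. Its replicates 1, 2 and 3 had residual SDs of 0.280, 0.222 and 0.206, against 0.119 to 0.172 on the other 21 arrays. The liver transcript Alb reached 9.02 and 9.11 on 1 array each of the WT and Raptor-deficient 24 h groups, replicate 1 in both. Bulk RNA of this kind cannot tell fewer cells of a type from less RNA per cell.

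Averaged over all 24 arrays, 43 of the 45 proteasome genes lay above the gene median, and 28 lay at or above the 90th percentile of genes by mean level. The exceptions were Psma8, a testis alpha subunit, with a mean level of 4.41, and Psmb11, the thymoproteasome subunit, with 4.07. Neither passed the test in any comparison.

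Stimulation raised nearly the whole constitutive proteasome in WT cells within 8 h. Of 45 genes, 39 rose at 8 h and none fell, with a median difference of 1.07 on the log2 scale, against 18.9% of all genes that rose, 20.8% that fell and a median of -0.03 over all genes. All 7 alpha ring genes other than Psma8, all 7 constitutive beta ring genes and all 16 genes of the 19S particle were among them. The 6 genes that did not pass were Psma8, Psmb11, Psmf1 and the 3 immunoproteasome subunits. At 24 h 43 of 45 had risen, with a median of 1.21, and none had fallen, against 25.4% of all genes that rose and 24.3% that fell. From 8 h to 24 h 12 of 45 rose further and none fell, with a median of 0.16, against 17.4% of all genes that rose and 11% that fell. Psmd9 and Psmf1, counted as risen at 24 h, each had 1 probe set called higher and 1 called lower, of 3 and 4 probe sets. The same held for Psmf1 from 8 h to 24 h. The mean level of the 30 constitutive 20S and 19S genes was 8.62 ± 0.07 (SD, n = 4) unstimulated, 9.75 ± 0.07 at 8 h and 9.91 ± 0.04 at 24 h.

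**Figure D1:**
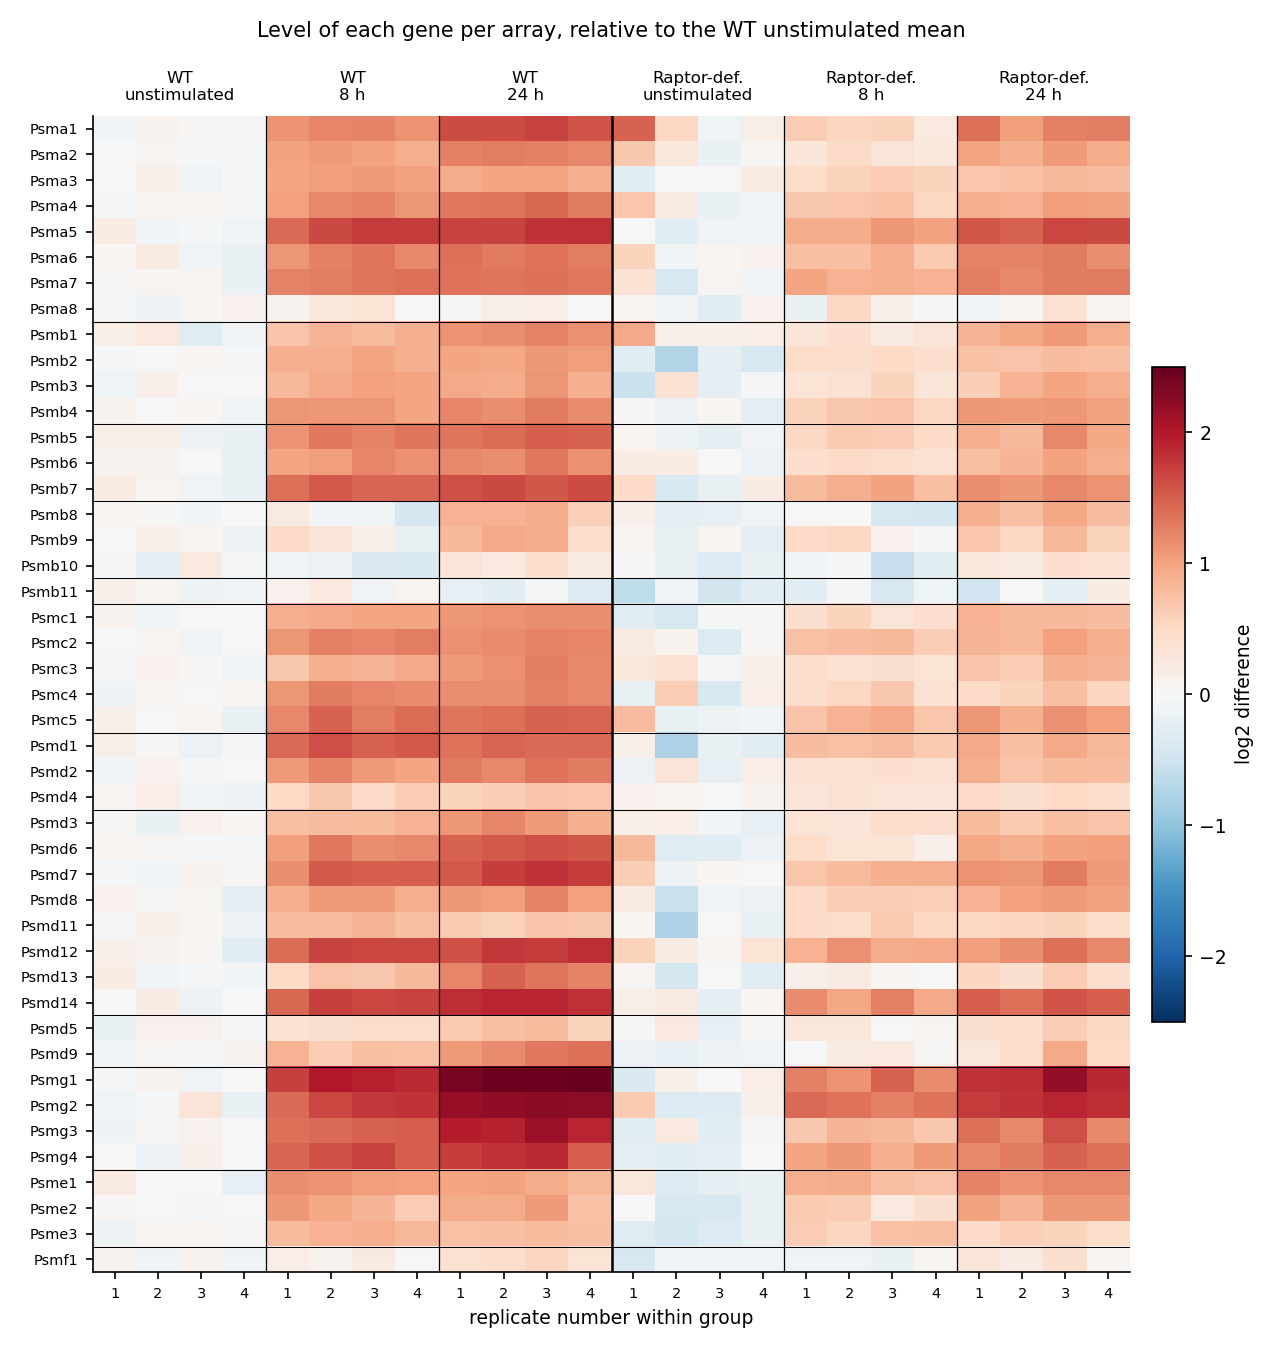
Heat map of the 45 proteasome genes (rows, ordered by part of the complex, with lines between parts) on the 24 arrays (columns, by group and replicate number). Colour gives the log2 level minus the mean of the 4 WT unstimulated arrays. WT cells at 8 h are red in all 30 constitutive 20S and 19S genes, while Psmb8 and Psmb9 turn red at 24 h. Psmb10 changes only faintly (0.31 in WT at 24 h), and Psma8 and Psmb11 stay pale.

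The constitutive catalytic subunits all rose early. Psmb5, the chymotrypsin-like subunit, had levels of 8.34, 8.33, 8.05 and 8.03 unstimulated, 9.32, 9.50, 9.43 and 9.52 at 8 h, and 9.52, 9.59, 9.68 and 9.66 at 24 h in WT cells. Every stimulated array lay above every unstimulated one. The rise was 1.252 (SE 0.0929, 2.38-fold, adjusted p = 1.53e-11) at 8 h and 1.42 at 24 h. Psmb6, the caspase-like subunit, went from 8.85, 8.85, 8.77 and 8.58 to 9.75, 9.82, 9.99 and 9.90 at 8 h and to 9.96, 9.93, 10.08 and 9.92 at 24 h. Its groups did not overlap with the unstimulated ones either, and it rose by 1.10 (SE 0.0875) and 1.21. Psmb7, the trypsin-like subunit, went from 8.98, 8.87, 8.71 and 8.62 to 10.18, 10.33, 10.25 and 10.25 and then to 10.39, 10.45, 10.36 and 10.43. The rise of 1.46 (SE 0.122, 2.75-fold) at 8 h was the largest of the 3, and it stood at 1.61 at 24 h.

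The immunoproteasome subunits rose later. Psmb8 had WT levels of 9.75, 9.72, 9.62 and 9.68 unstimulated, 9.92, 9.63, 9.59 and 9.27 at 8 h, and 10.56, 10.56, 10.61 and 10.29 at 24 h. The 8 h arrays overlapped the unstimulated ones, with a difference of -0.09 (95% confidence interval -0.34 to 0.16), and all 24 h arrays lay above both. Its rise at 24 h was 0.81 (SE 0.122, 1.76-fold, adjusted p = 2.33e-06). Psmb9 had 9.69, 9.82, 9.74 and 9.54 unstimulated, 10.18, 10.01, 9.84 and 9.51 at 8 h and 10.51, 10.65, 10.63 and 10.15 at 24 h. It differed by 0.19 (-0.10 to 0.47) at 8 h and rose by 0.78 (SE 0.140, adjusted p = 2.87e-05) at 24 h. That call rests on its brightest probe set, since the other 2 gave 0.18 and 0.22 at 24 h and passed no test. Psmb10 had 8.14, 7.91, 8.36 and 8.08 unstimulated, 8.01, 7.98, 7.77 and 7.75 at 8 h and 8.44, 8.37, 8.56 and 8.34 at 24 h. Its groups overlapped at both times, with -0.24 (-0.47 to -0.02, adjusted p = 0.0817) at 8 h and a small rise of 0.31 (SE 0.110, adjusted p = 0.0213) at 24 h. Without WT unstimulated replicate 2 the adjusted p at 24 h was 0.0956, and without WT 24 h replicate 3 it was 0.0737. Between 8 h and 24 h all 3 rose in WT cells, by 0.90, 0.60 and 0.55, whereas none of Psmb5, Psmb6 and Psmb7 passed that test, with 0.17, 0.11 and 0.15.

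**Figure D2:**
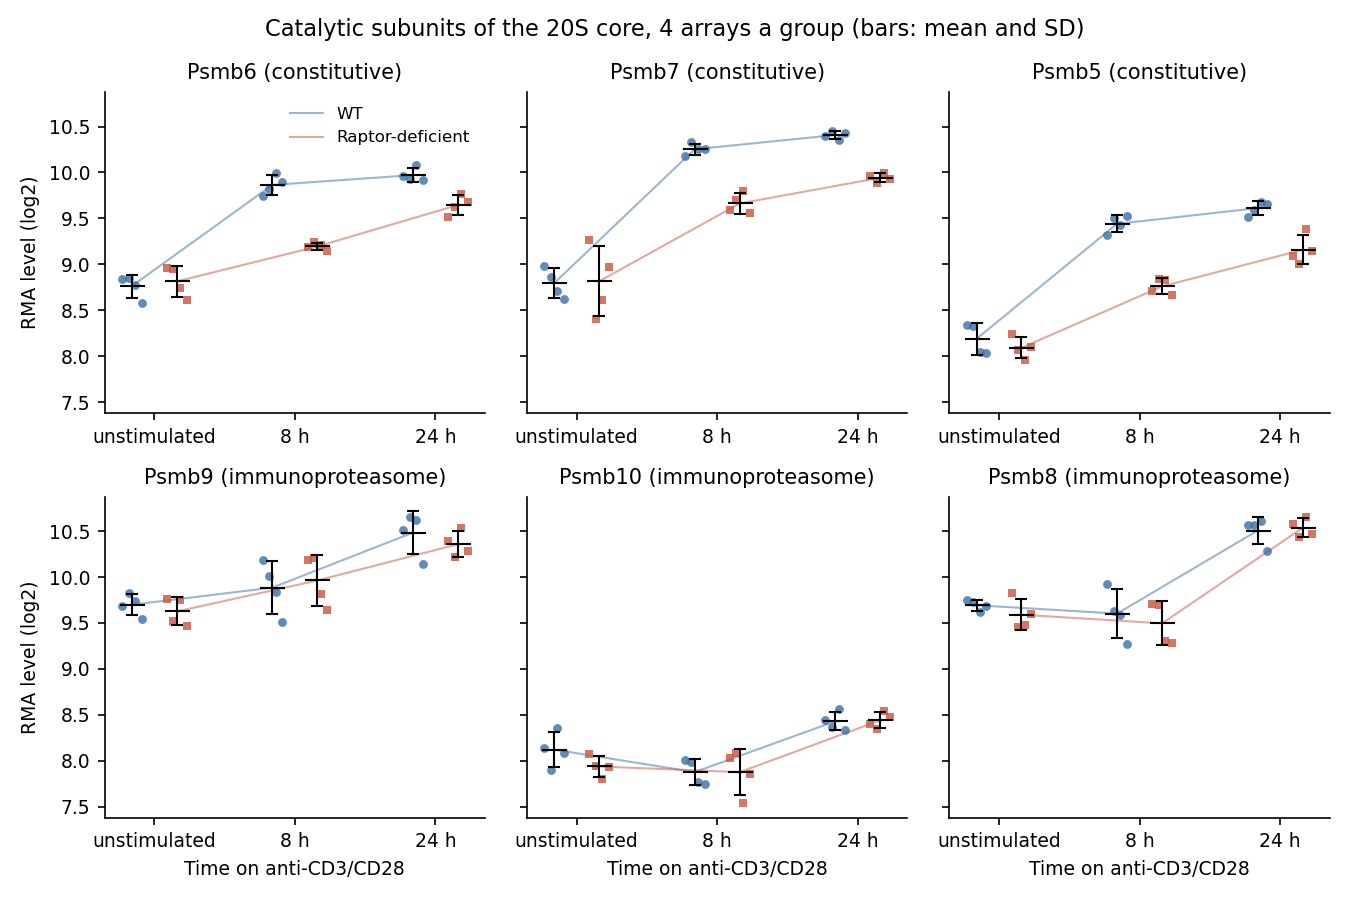
RMA level (log2) of the 3 constitutive catalytic subunits (top) and the 3 immunoproteasome subunits (bottom) by time on anti-CD3/CD28. Points are arrays (blue circles WT, red squares Raptor-deficient), bars are the mean and SD of 4 arrays, and lines join the means. The genotypes separate at 8 h and 24 h for Psmb5, Psmb6 and Psmb7 and overlap at all times for Psmb8, Psmb9 and Psmb10.

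The 11S activators followed the early course of the constitutive genes. Psme1 rose from 10.23, 10.01, 10.03 and 9.81 to 11.18, 11.14, 11.06 and 11.05 in WT cells at 8 h and lay at 10.999, 11.03, 10.96 and 10.85 at 24 h. Psme2 rose from 9.68, 9.66, 9.60 and 9.62 to 10.72, 10.61, 10.49 and 10.28 and lay at 10.57, 10.57, 10.70 and 10.37 at 24 h. Stimulated and unstimulated arrays did not overlap for either gene. The rises at 8 h were 1.09 (SE 0.104) and 0.89 (SE 0.109), and Psme3 rose by 0.85.

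The largest rises belonged to Psmg1 and Psmg2, assembly chaperones of the 20S core, which help alpha rings form before beta subunits join. Psmg1 had WT levels of 6.36, 6.47, 6.31 and 6.40 unstimulated, 8.10, 8.38, 8.32 and 8.26 at 8 h and 8.75, 8.83, 8.84 and 8.87 at 24 h. It rose by 1.88 (SE 0.107, 3.68-fold) and 2.44 (5.41-fold, adjusted p = 2.18e-16). Psmg2 went from 6.48, 6.54, 6.90 and 6.41 to 8.00, 8.26, 8.34 and 8.40 and then to 8.76, 8.80, 8.84 and 8.82, by 1.67 and 2.22. Psmg3 went from 6.57, 6.74, 6.81 and 6.69 to 8.08, 8.13, 8.18 and 8.22 and then to 8.67, 8.63, 8.86 and 8.61, by 1.45 and 1.99. No stimulated array of these genes reached down to an unstimulated one. Psma5, an alpha ring subunit, had the third largest rise at 8 h, 1.64, from 9.06, 8.78, 8.82 and 8.74 to 10.26, 10.51, 10.60 and 10.61. Psmg4 rose by 1.56 and 1.73. In the 19S particle the largest WT rises were those of the lid deubiquitinase Psmd14, by 1.62 at 8 h and 1.87 at 24 h, and of the lid scaffold Psmd12, by 1.604 and 1.74. The smallest at 8 h was that of the ubiquitin receptor Psmd4, by 0.57.

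Raptor-deficient cells raised the same complex, by less at 8 h. At 8 h 31 of 45 genes had risen and none had fallen, with a median of 0.59, against 16% of all genes that rose and 16.8% that fell. All 31 were among the 39 that rose in WT cells. The 8 others were Psma1, Psma2, Psmb1, Psmc3, Psmd13, Psmd5, Psmd6 and Psmd9. At 24 h 43 of 45 had risen, with a median of 0.91, and none had fallen, against 21.6% of all genes that rose and 17.5% that fell. The risen genes were the 43 that rose in WT cells. From 8 h to 24 h 32 of 45 rose and none fell, with a median of 0.39, against 15.2% of all genes that rose and 7.81% that fell. Psmd9, counted as risen at 24 h and from 8 h to 24 h, had 1 of 3 probe sets called higher and 1 called lower each time. The mean level of the 30 constitutive 20S and 19S genes was 8.64 ± 0.17 unstimulated, 9.20 ± 0.05 at 8 h and 9.56 ± 0.06 at 24 h. On unstimulated replicate 1 that mean was 8.88, against 8.55, 8.52 and 8.60 on replicates 2, 3 and 4. With 1 array left out the count of 31 risen at 8 h ranged from 31 to 35. The largest rises at 8 h were those of Psmg2, Psmg1 and Psmg4, by 1.32, 1.28 and 1.19. Psmg1 had Raptor-deficient levels of 6.03, 6.51, 6.39 and 6.54 unstimulated and 7.65, 7.5001, 7.87 and 7.56 at 8 h. Psmg2 went from 7.23, 6.23, 6.27 and 6.70 to 7.99, 7.95, 7.84 and 7.94, and Psmg4 from 6.35, 6.33, 6.36 and 6.58 to 7.57, 7.68, 7.48 and 7.66. All 3 were clear of their unstimulated arrays. At 24 h the largest rises were those of Psmg1, Psmg2 and Psma5, by 1.95, 1.81 and 1.71, with levels of 8.20, 8.22, 8.58 and 8.27 for Psmg1 and of 8.34, 8.40, 8.49 and 8.44 for Psmg2. The alpha ring gene Psma1 had 8.71, 7.75, 7.13 and 7.38 unstimulated, where replicate 1 stood far above the rest, and 7.87, 7.77, 7.82 and 7.48 at 8 h. Its difference was -0.01 over all arrays and 0.31 without that replicate, where it was called higher (limma, adjusted p = 0.0375).

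**Figure D3:**
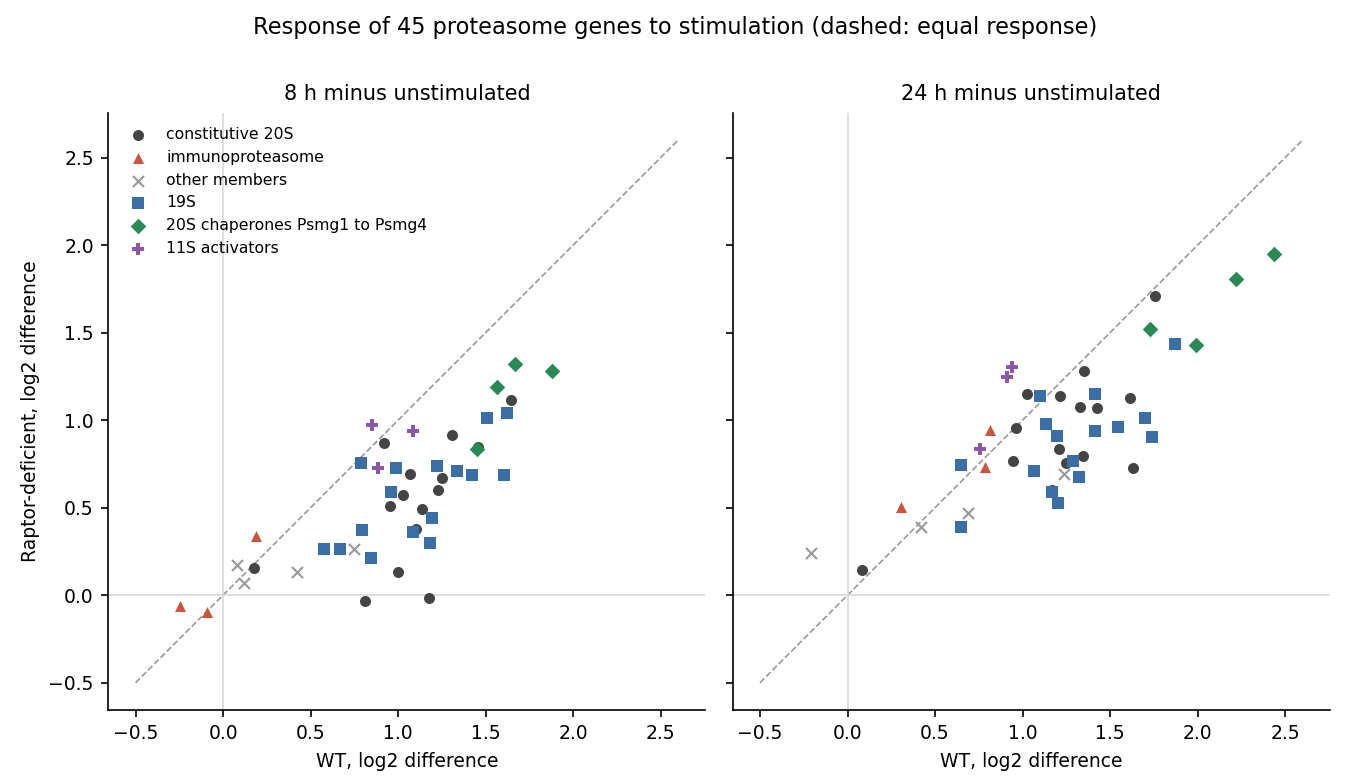
Change of each of the 45 genes from unstimulated cells in WT (x axis) and Raptor-deficient cells (y axis), both as log2 differences of group means of 4 arrays, at 8 h (left) and 24 h (right). Colours and shapes mark the parts of the complex, and the dashed line marks equal responses. Most constitutive 20S and 19S genes lie below the line at 8 h, the immunoproteasome subunits lie close to it at both times, and the chaperones Psmg1 and Psmg2 lie farthest to the right.

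Before stimulation the genotypes hardly differed. Of 45 genes, 2 were lower and none higher in Raptor-deficient cells, against 1.24% of all genes lower and 0.702% higher. The median difference was -0.02, against -0.01 over all genes. Psmb2, a non-catalytic beta subunit, had levels of 9.97, 10.001, 10.03 and 9.97 in WT and 9.71, 9.26, 9.77 and 9.60 in Raptor-deficient cells. No arrays overlapped, and the difference was -0.41 (SE 0.0830, adjusted p = 0.00652). Psme3, the nuclear activator, had 10.21, 10.39, 10.40 and 10.37 against 10.04, 9.91, 10.03 and 10.15, again without overlap, a difference of -0.31 (adjusted p = 0.0248). Psme3 lost its call without any 1 of WT replicates 2, 3 and 4 or Raptor-deficient replicate 2 (adjusted p from 0.0589 to 0.0794). With its 2 probe sets averaged the difference of Psme3 was -0.099 (adjusted p = 0.695), and with array weights its adjusted p was 0.138. Psmb2 kept its call in both settings. With only the compared groups in the fit neither gene was called (adjusted p = 0.277 for Psmb2 and 0.336 for Psme3).

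At 8 h most of the constitutive proteasome was lower in Raptor-deficient cells. Of 45 genes, 34 were lower and none higher, against 8.77% of all genes lower and 4.14% higher, and 38 had all 4 Raptor-deficient arrays below all 4 WT arrays, against 12.5% of all genes. The median difference was -0.48, against 0.01 over all genes. All 14 constitutive genes of the 20S core other than Psma8 and 15 of 16 genes of the 19S particle were lower, including 5 of 5 base ATPases and 7 of 8 lid genes. The 19S exception, Psmd11 (-0.26), had 2 other probe sets that were called lower, with -0.47 and -0.57. Of the chaperones Psmg1, Psmg3 and Psmg4 were lower, and of the activators Psme2 was (-0.40, with overlapping arrays). Of 9 CD4 T cell markers 3 were also lower at 8 h and none higher, with Cd4 at a mean of 9.90 against 10.3 in WT, and the part of this in the proteasome differences was not tested.

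The lid subunit Psmd6 showed the largest difference at 8 h. Its levels were 8.94, 9.20, 9.05 and 9.10 in WT and 8.34, 8.24, 8.23 and 8.03 in Raptor-deficient cells, a difference of -0.86 (SE 0.150, 1.82-fold, adjusted p = 0.000228). The large base subunit Psmd1, a docking scaffold, had 9.59, 9.78, 9.65 and 9.70 against 8.94, 8.91, 8.95 and 8.83, a difference of -0.77 (SE 0.118, adjusted p = 5.09e-05). Psmg3 followed with 8.08, 8.13, 8.18 and 8.22 against 7.37, 7.54, 7.51 and 7.38, a difference of -0.70 (SE 0.108, adjusted p = 5.34e-05). None of these 3 genes had overlapping arrays at 8 h.

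The catalytic subunits divided by type at 8 h. Psmb5 had Raptor-deficient levels of 8.24, 8.07, 7.96 and 8.10 unstimulated, and 8.71, 8.84, 8.83 and 8.67 at 8 h, all below the WT arrays, with a difference of -0.68 (SE 0.0929, 1.603-fold, adjusted p = 1.34e-05). Psmb6 had 8.96, 8.94, 8.75 and 8.61 unstimulated and 9.19, 9.24, 9.21 and 9.14 at 8 h, a difference of -0.67 (adjusted p = 7.29e-06). Psmb7 had 9.27, 8.41, 8.61 and 8.97 unstimulated and 9.59, 9.70, 9.80 and 9.55 at 8 h, a difference of -0.59 (adjusted p = 0.00132). For these 3 genes no Raptor-deficient array at 8 h reached the WT range. Psmb8, by contrast, had 9.83, 9.46, 9.48 and 9.59 unstimulated and 9.71, 9.70, 9.30 and 9.28 at 8 h, inside the WT range, with a difference of -0.11 (95% confidence interval -0.36 to 0.15). Psmb9 had 9.76, 9.52, 9.75 and 9.47 unstimulated and 10.18, 10.21, 9.81 and 9.65 at 8 h, a difference of 0.08 (-0.21 to 0.37). Psmb10 had 8.08, 7.95, 7.80 and 7.93 unstimulated and 8.03, 8.09, 7.54 and 7.85 at 8 h, with an interval of -0.23 to 0.23 for the difference. None of the 3 passed the test, and their intervals exclude a fall as large as that of Psmb5. The arrays of Psmb8 and Psmb9 spread more at 8 h than unstimulated, with SDs of 0.24 to 0.29 in both genotypes. Part of this spread followed the replicate number. In both genotypes at 8 h, replicates 1 and 2 of Psmb8, Psmb9 and Psmb10 lay above replicates 3 and 4. The main fit did not use replicate numbers, and what this order reflects was not tested.

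At 24 h fewer genes differed. Of 45 genes, 22 were lower in Raptor-deficient cells and none higher, against 13.1% of all genes lower and 8.35% higher, and 33 had all arrays below WT, against 16.5% of all genes. The median difference was -0.29, against 0.01 over all genes. Of the 22, 21 had also been lower at 8 h, and Psme3 was the addition. In the 19S particle 12 of 16 genes were lower, whereas in the alpha ring 1 of 7 (Psma4) was, although 6 of those 7 had all 4 arrays below WT. All 3 constitutive catalytic subunits were also lower at 24 h, though Psmb6 lost its call without replicate 1 of both 24 h groups, the arrays with high Alb (-0.29, adjusted p = 0.0594). Psmb5 had 9.10, 9.01, 9.38 and 9.15, a difference of -0.45 (SE 0.0929), Psmb6 had 9.52, 9.62, 9.77 and 9.68, a difference of -0.33 (SE 0.0875), and Psmb7 had 9.96, 9.89, 9.9996 and 9.92, a difference of -0.46 (SE 0.122). Their arrays did not overlap with WT.

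The lid subunit Psmd13 differed most at 24 h. Its levels were 9.13, 9.38, 9.24 and 9.15 in WT and 8.44, 8.31, 8.55 and 8.35 in Raptor-deficient cells, a difference of -0.81 (SE 0.103, 1.76-fold, adjusted p = 1.14e-06). The 19S chaperone Psmd9 had 7.58, 7.71, 7.84 and 7.90 against 6.80, 6.98, 7.47 and 7.01, a difference of -0.69 (SE 0.105, adjusted p = 1.91e-05). Its 2 other probe sets, with mean levels of 4.07 and 5.17, gave 0.07 and -0.04. Psmg3 had 8.67, 8.63, 8.86 and 8.61 against 8.07, 7.91, 8.31 and 7.90, a difference of -0.65 (SE 0.108). None of the 3 overlapped between genotypes.

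The interferon-inducible members passed no test between genotypes at 24 h. Psmb8 had Raptor-deficient levels of 10.58, 10.44, 10.66 and 10.47, a difference of 0.03 from WT (-0.22 to 0.28). Psmb9 had 10.39, 10.22, 10.54 and 10.28, a difference of -0.13 (-0.41 to 0.16). Psmb10 had 8.40, 8.34, 8.55 and 8.48, a difference of 0.01 (-0.21 to 0.24). All 3 had risen over unstimulated Raptor-deficient cells, by 0.95, 0.73 and 0.50. Psme1 went in Raptor-deficient cells from 10.30, 9.71, 9.78 and 9.85 to 10.93, 10.95, 10.77 and 10.74 at 8 h and to 11.27, 11.15, 11.22 and 11.21 at 24 h, where all 4 arrays lay above WT, by 0.25 (adjusted p = 0.0901). Without unstimulated Raptor-deficient replicate 1 its adjusted p was 0.0244. Psme2 went from 9.65, 9.23, 9.25 and 9.45 to 10.30, 10.25, 9.89 and 10.05 and then to 10.64, 10.49, 10.72 and 10.72, which overlapped WT, with a difference of 0.09 (-0.13 to 0.32).

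**Figure D4:**
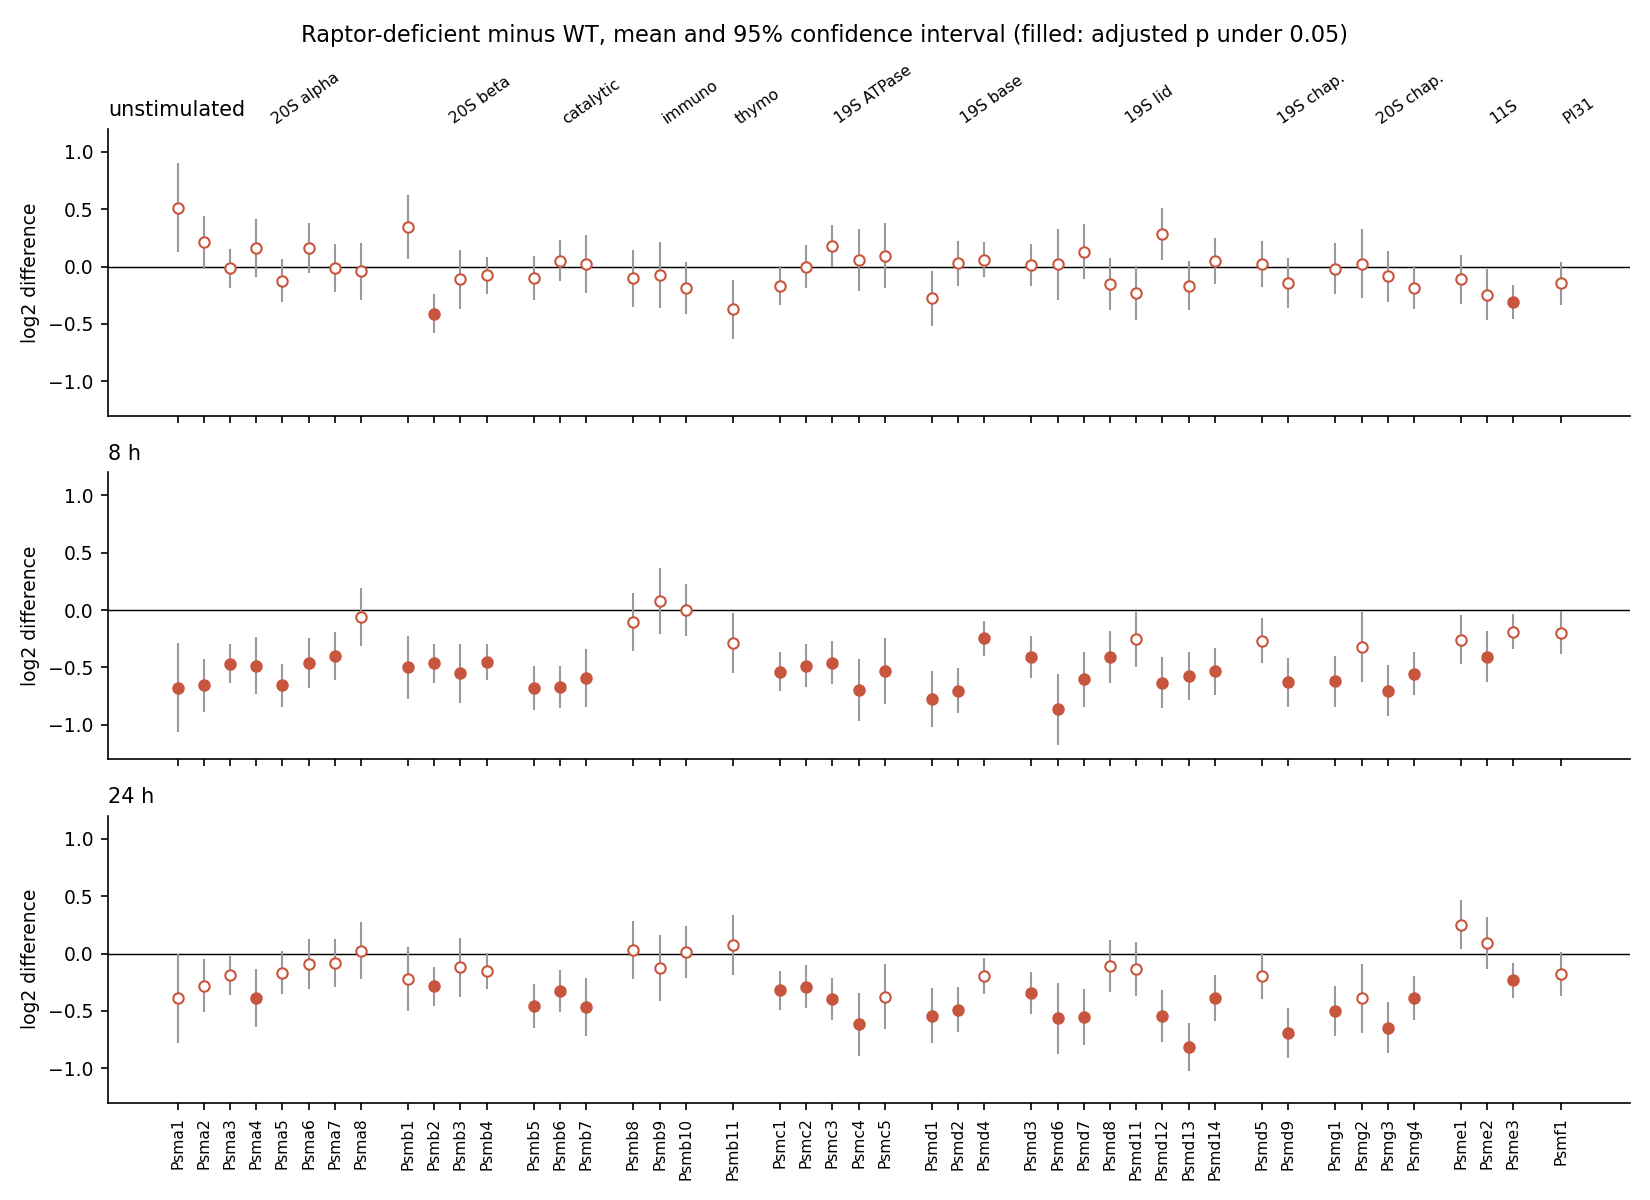
Raptor-deficient minus WT difference (log2) of the 45 genes, by part of the complex, in unstimulated cells, at 8 h and at 24 h. Points are differences of means of 4 arrays, bars are 95% confidence intervals, and filled points passed the test across all genes (adjusted p under 0.05). At 8 h 34 points are filled and lie below 0, at 24 h 22 are, and those of Psmb8, Psmb9 and Psmb10 are open at all times.

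Because each catalytic site can hold either of 2 subunits, the log2 level of the immunoproteasome subunit minus that of its constitutive counterpart was compared between groups. The difference of 2 probe sets has no absolute meaning as a share of complexes, so only its change is read. In WT cells Psmb8 minus Psmb5 averaged 1.504 ± 0.12 (SD, n = 4) unstimulated, 0.16 ± 0.35 at 8 h and 0.89 ± 0.18 at 24 h. In Raptor-deficient cells it averaged 1.498 ± 0.08, 0.74 ± 0.24 and 1.38 ± 0.09. The balance thus moved toward the constitutive subunit at 8 h in both genotypes, by -1.34 in WT and -0.76 in Raptor-deficient cells (adjusted p = 3.52e-09 and 4.40e-05). Psmb9 minus Psmb6 averaged 0.94 ± 0.06, 0.02 ± 0.37 and 0.51 ± 0.20 in WT and 0.81 ± 0.18, 0.77 ± 0.25 and 0.71 ± 0.13 in Raptor-deficient cells. It fell by 0.91 at 8 h in WT (adjusted p = 7.15e-06), whereas the change of -0.04 in Raptor-deficient cells (-0.34 to 0.25) did not pass the test. Psmb10 minus Psmb7 averaged -0.67 ± 0.28, -2.38 ± 0.16 and -1.98 ± 0.14 in WT and -0.88 ± 0.32, -1.79 ± 0.32 and -1.50 ± 0.06 in Raptor-deficient cells, with changes of -1.70 and -0.91 at 8 h, both called.

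Between genotypes all 3 site differences were larger in Raptor-deficient cells at 8 h, by 0.58 (SE 0.134), 0.75 (SE 0.144) and 0.59 (SE 0.152) for Psmb8, Psmb9 and Psmb10 over their counterparts (adjusted p = 0.00380, 0.000686 and 0.00888). Only Psmb9 minus Psmb6 had all 4 Raptor-deficient arrays above all WT arrays at 8 h. At 24 h Psmb8 minus Psmb5 and Psmb10 minus Psmb7 were larger, by 0.48 each (adjusted p = 0.00936 and 0.0249), without overlap, and Psmb9 minus Psmb6 was not called (0.20, -0.10 to 0.50). Without WT 24 h replicate 4 no site difference was called at 24 h, and without WT 24 h replicate 2 or Raptor-deficient 24 h replicate 3 or 4 there was 1. In an exact two-sided permutation test over arrays the smallest possible p is 0.0286, and after adjustment over 27 tests none passed.

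**Figure D5:**
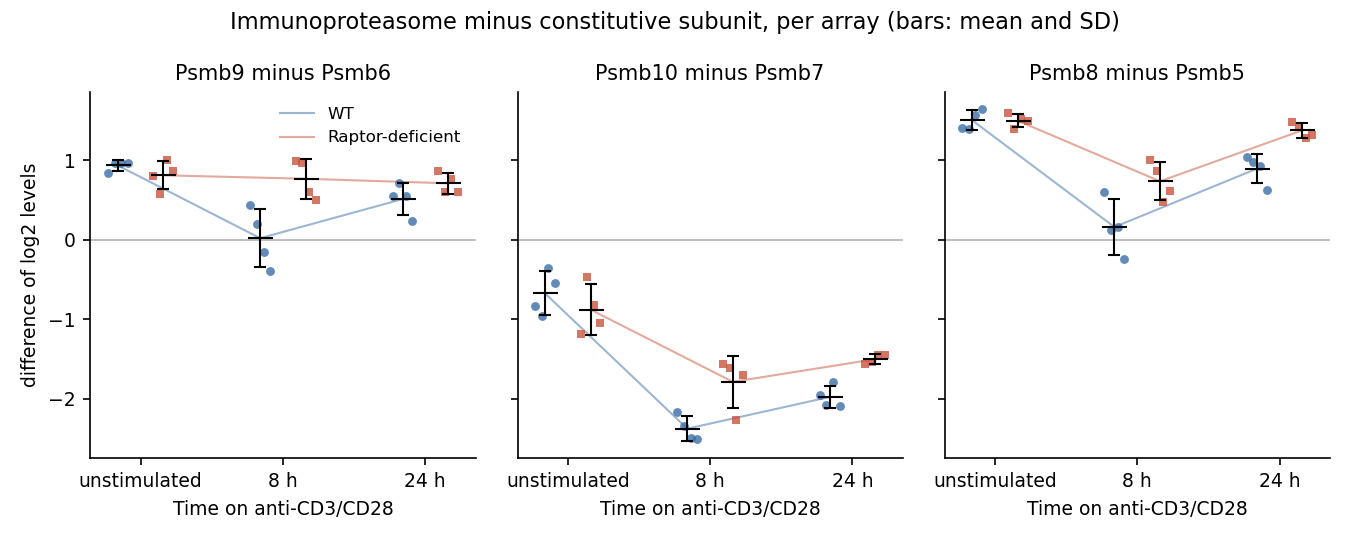
Log2 level of each immunoproteasome subunit minus that of its constitutive counterpart on each array, by time. Points are arrays (blue circles WT, red squares Raptor-deficient), bars are the mean and SD of 4 arrays. The WT means dip at 8 h in all 3 panels, to 0.02 for Psmb9 minus Psmb6, where the Raptor-deficient mean stays at 0.77.

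The response itself was compared between genotypes as a difference of differences. At 8 h 22 of 45 genes had a smaller response in Raptor-deficient cells and none a larger one, against 4.36% of all genes with a lower value and 1.94% with a higher one. Unstimulated Raptor-deficient replicate 1, high for the constitutive genes as a set (mean 8.88), raises the baseline of these responses. With 1 array left out the count ranged from 17 to 26. These 22 were all among the 34 that were lower at 8 h. They included 6 of 7 alpha ring genes, the 3 constitutive catalytic subunits, Psmb1 and Psmb4, 9 of 16 genes of the 19S particle, and the chaperones Psmg1 and Psmg3. Psma1, whose unstimulated Raptor-deficient replicate 1 stood apart, had -1.19 (SE 0.268, adjusted p = 0.00761). Its value was -0.87 without that replicate and -0.65 with its probe sets averaged. With all arrays kept, Psmd12 had -0.92 (SE 0.155, adjusted p = 0.000641), and Psmd6 -0.88 (SE 0.212). Psmd12 had levels of 7.72, 7.69, 7.65 and 7.34 unstimulated and 8.9995, 9.29, 9.28 and 9.26 at 8 h in WT, and 8.18, 7.79, 7.64 and 7.94 unstimulated and 8.48, 8.75, 8.53 and 8.54 at 8 h in Raptor-deficient cells. All stimulated arrays lay above the unstimulated ones of their genotype, and at 8 h all Raptor-deficient arrays lay below WT. Psmd6 had 7.96, 7.92, 7.85 and 7.84 unstimulated in WT and 8.70, 7.58, 7.62 and 7.75 in Raptor-deficient cells, where replicate 1 again stood above the rest, and without that replicate its difference of responses was -0.62. No immunoproteasome subunit passed this test, with intervals of -0.36 to 0.35, -0.26 to 0.56 and -0.14 to 0.50 for Psmb8, Psmb9 and Psmb10.

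At 24 h 15 of 45 genes had a smaller response and none a larger one, against 8.01% of all genes with a lower value and 5.26% with a higher one, and 13 of them were shared with 8 h. Psma1 (-0.91), Psmd12 (-0.83) and Psmd7 (-0.68) had the largest differences with all arrays. Psma1 had -0.58 without unstimulated Raptor-deficient replicate 1, and its call was lost with averaged probe sets (-0.34, adjusted p = 0.121), with only the compared groups fitted (adjusted p = 0.0604) and without Raptor-deficient 24 h replicate 2 (adjusted p = 0.0545). Psmd7 also lost its call with averaged probe sets (-0.17, adjusted p = 0.426). At 24 h Psma1 had 8.86, 8.87, 8.92 and 8.81 in WT and 8.61, 8.28, 8.499 and 8.504 in Raptor-deficient cells. Psmd12 had 9.20, 9.36, 9.36 and 9.44 against 8.64, 8.76, 8.97 and 8.80. The lid subunit Psmd7 had 9.42, 9.59, 9.67 and 9.60 against 8.99, 8.98, 9.18 and 8.93. No arrays of these genes overlapped between genotypes at 24 h. The count of 15 became 9, 8 and 9 without Raptor-deficient 24 h replicate 1, Raptor-deficient 24 h replicate 2 and WT 24 h replicate 3. From 8 h to 24 h Psma5 (0.49, adjusted p = 0.0229) and Psme1 (0.51, adjusted p = 0.0435) rose more in Raptor-deficient than in WT cells, 2 of 45 against 1.33% of all genes, and none rose less, against 3.2%. Leaving out WT 8 h replicate 3, WT 24 h replicate 2, or Raptor-deficient 24 h replicate 3 or 4 left none. Psma5 had 8.83, 8.56, 8.73 and 8.78 unstimulated, 9.78, 9.78, 9.94 and 9.86 at 8 h and 10.39, 10.33, 10.53 and 10.50 at 24 h in Raptor-deficient cells, and 10.55, 10.55, 10.65 and 10.67 at 24 h in WT. Its genotypes were apart at 8 h by 0.65 and at 24 h by 0.17, a smaller gap.

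Other genes of the ubiquitin-proteasome system moved less uniformly. The list held 33 symbols, including older names of Sem1, Ufd1 and Ecpas beside the current ones, and 20 matched a measured gene. Of these 20, 11 rose and 3 fell in WT cells at 8 h, against 18.9% and 20.8% of all genes. At 24 h 8 rose and 3 fell, against 25.4% and 24.3%. The share that fell was thus not above that of all genes. Pomp, the maturation factor that brings beta subunits onto the alpha ring, rose most, by 1.62 at 8 h and 1.80 at 24 h. Usp14 and Uchl5, deubiquitinases bound to the 19S particle, rose by 1.49 and 0.96 at 8 h, and the 19S-associated thioredoxin Txnl1 by 1.36. Ngly1, a cytosolic deglycosylase, fell by 1.24, and Nfe2l2, the antioxidant transcription factor NRF2, fell by 0.79. Nfe2l1, which encodes NRF1, a transcription factor for proteasome genes, rose by 0.27 at 8 h and differed by -0.18 at 24 h. In Raptor-deficient cells 6 of 20 genes were lower at 8 h, against 8.77% of all genes, and 5 at 24 h, against 13.1%. None was higher, against 4.14% and 8.35%. Those at 8 h included the 19S lid subunit Sem1 (-0.50), Uchl5 (-0.52), Txnl1 (-0.49) and Usp14 (-0.51), and Uchl5 (-0.77), the importin Ipo9 (-0.45) and the ubiquitin receptor Rad23b (-0.38) were lower at 24 h. Pomp differed by -0.24 and -0.17, Nfe2l1 by -0.01 and 0.13, and neither was called. In unstimulated cells Nfe2l2 (0.56) and Uchl5 (0.39) were higher without Raptor. Adrm1 and Akirin2 were not analysed here.

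Of 28 listed interferon and antigen presentation genes 23 were measured. In WT cells 10 rose and 6 fell at 8 h, against 18.9% and 20.8% of all genes, so that the share that fell lay near that of all genes. They included the guanylate-binding protein Gbp2 (4.42), the kinase Jak2 (1.59), the class I transactivator Nlrc5 (1.21) and the transcription factor Irf1 (0.89), while the receptor chain Ifngr1 fell by 1.68. In Raptor-deficient cells 12 of 23 were higher and 2 lower at 24 h, against 8.35% and 13.1% of all genes, with a median of 0.36. The interferon-induced Ifit1 (1.72), the receptor chain Ifngr2 (0.69), the class I heavy chain H2-D1 (0.39), the transcription factor Stat2 (0.85) and Nlrc5 (0.49) were among the higher, and the endoplasmic reticulum chaperones Calr (-0.32) and Canx (-0.25) were the lower ones. Irf1 differed by 0.44 and was not called. B cell markers also stood higher in Raptor-deficient cells at 24 h, 5 of 13, against 8.35% of all genes. Their mean levels per array were 5.27 to 5.86, against 4.84 to 5.09 in WT. At 8 h 1 of 13 was higher, against 4.14% of all genes. Of 14 myeloid markers 2 were higher at each of these times, against the same shares of all genes. The part of B cell and myeloid markers in these differences was not tested.

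The 2 other genes that the rule matched differed from the subunits and from each other. Psmc3ip, a cofactor of meiotic recombination, had mean levels of 6.52, 7.29 and 8.82 in WT and 6.68, 6.91 and 7.70 in Raptor-deficient cells, in order of time. It rose by 2.30 in WT at 24 h and was lower by 1.12 in Raptor-deficient cells then (SE 0.129). Psme3ip1, a partner of Psme3, passed no test, with genotype differences of -0.03, 0.13 and -0.05.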

How the data were processed

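RNA from 24 samples was amplified (20 ng of total RNA each, per the labels' protocols) and hybridised to 1 array each. The authors' deposited table held RMA values on a log2 scale for 45141 probe sets, and the submitters' processing notes name RMA and Partek 6.5. The files hold no scanner signals, so background correction was not varied. Precision is set by how many arrays there are. Symbols came from the platform annotation given with the table: 28898 probe sets name 1 gene, 551 several and 15692 are unlisted, and 28689 Entrez IDs matched GRCm38.p6. Each of 17097 genes was read from its brightest probe set on average (7180 genes had several).

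Differences were tested with limma 3.58.1 (R 4.3.3), with lmFit on 6 group means (18 residual degrees of freedom) and eBayes, in 12 comparisons. P-values were adjusted by Benjamini-Hochberg over all genes within a comparison, and calls needed an adjusted p under 0.05. Log2 differences between the 2 subunits of a catalytic site were tested in the same fit. The share of all genes called in a comparison is printed beside the members' count. Promoter letters were searched with Python 3.11.15. On simulated data for Raptor-deficient against WT cells at 8 h (17097 genes, 50 changed at each size), 22% of 1.25-fold, 84% of 1.5-fold and 100% of 2-fold changes were recovered. The simulated noise was independent between values, with 1 SD per gene over all groups. In the real comparison 8.77% of genes were called lower and 4.14% higher, so these rates need not hold for it.

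The members and gene lists were chosen with earlier results of these data known. Values in every array are given for the catalytic subunits, Psme1 and Psme2, and for up to 3 called members with the largest rise or fall in a comparison whose higher group mean was at least 5.51. From the other lists up to 4 called genes with the smallest p in a comparison are named, with Pomp, Nfe2l1, Nfe2l2, Irf1 and Nlrc5. Genes outside these rules were named after their values were seen. Alternatives covered the probe set choice, a filter on dim probe sets, cyclic loess, median centring, fits of the compared groups alone, array weights, an intensity trend with a robust prior, replicate blocks, exact permutation for the site differences and each array left out. Replicate numbers were not treated as pairing samples, since the labels do not say what they mark. In none of 15 pairs of groups did all same-numbered samples correlate above 0.1 in their deviations, a criterion that partial sharing would not meet. Across genotypes 8 of 36 same-numbered pairs of samples did (median 0.033), against 5 of 108 differently numbered pairs (median -0.013). Within a genotype 2 of 24 did, against 1 of 72. Whether same-numbered samples share a day or an animal was not tested. No arrays were identical.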

Additional observations from a re-analysis of the deposited data

Results flagged for a closer look

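Some arrays stood far from the other 3 of their group by Dixon's criterion, which chance meets in about 1 in 20 groups. Of 294 sets of 4 values 14 did, which is near that rate. In unstimulated Raptor-deficient cells replicate 1 was high for Psmb1 (9.26), Psmc5 (8.67) and Psmd6 (8.70) and low for Psmf1 (7.15), and replicate 4 was high for Psmg4 (6.58). In WT cells at 8 h replicate 1 was low for Psmd12 (8.9995), Psmd14 (9.91) and Psmd7 (9.04), and replicate 4 was low for Psmb4 (10.2). In unstimulated WT cells replicate 1 was high for Psmd13 (8.10) and low for Psme3 (10.2) and for Psmb9 minus Psmb6 (0.84). At 24 h WT replicate 4 was low for Psmb8 (10.3), and Raptor-deficient replicate 3 was high for Psmg1 (8.58).

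The response at 8 h differed between genotypes, by the limma test of the difference of differences, for 22 genes. In the alpha ring the values (log2) were -1.19 for Psma1, -0.87 for Psma2, -0.45 for Psma3, -0.65 for Psma4, -0.53 for Psma5 and -0.63 for Psma6. In the beta ring they were -0.85 for Psmb1, -0.37 for Psmb4, -0.58 for Psmb5, -0.72 for Psmb6 and -0.61 for Psmb7. In the 19S particle they were -0.48 for Psmc2, -0.64 for Psmc3, -0.76 for Psmc4, -0.73 for Psmd2, -0.42 for Psmd3, -0.88 for Psmd6, -0.73 for Psmd7, -0.92 for Psmd12 and -0.58 for Psmd14. The chaperones Psmg1 and Psmg3 had -0.60 and -0.62. All of these responses were smaller in Raptor-deficient cells.

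At 24 h the response differed for 15 genes, again smaller in Raptor-deficient cells. The values were -0.91 for Psma1, -0.49 for Psma2, -0.55 for Psma4, -0.57 for Psmb1 and -0.38 for Psmb6 in the core. They were -0.57 for Psmc3, -0.68 for Psmc4, -0.52 for Psmd2, -0.68 for Psmd7, -0.83 for Psmd12, -0.65 for Psmd13 and -0.44 for Psmd14 in the 19S particle. The chaperones Psmd9, Psmg1 and Psmg3 had -0.54, -0.48 and -0.56. The change from 8 h to 24 h was larger in Raptor-deficient cells for Psma5 (0.49) and Psme1 (0.51). The change of Psmb9 minus Psmb6 at 8 h differed by 0.87, and that of Psmb10 minus Psmb7 by 0.79 at 8 h and 0.68 at 24 h, each less negative in Raptor-deficient cells.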

How the results depend on the processing

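Of 403 single results called, leaving out 1 array ended the call in 263 of 9672 values and reversed none, and the other settings ended it in 116 of 4393 and reversed 8. Averaging a gene's probe sets reversed Psmf1 in WT (-0.094 at 24 h, -0.17 from 8 h to 24 h) and in Raptor-deficient cells (-0.097 at 24 h). It also reversed Psmd7 from 8 h to 24 h (-0.25 in WT, -0.080 in Raptor-deficient cells), Psmd9 (-0.045 from 8 h to 24 h in WT, -0.061 at 24 h and -0.10 from 8 h to 24 h in Raptor-deficient cells) and Tapbpl at 24 h in WT (-0.31). The uncalled change of Psma1 in Raptor-deficient cells at 8 h (-0.01) ranged from -0.22 to 0.31 with 1 array left out, and was 0.47 without unstimulated replicates 1 and 2, an alternative chosen after seeing the data. The 2 genes lower in unstimulated Raptor-deficient cells became 1 with averaged probe sets or array weights and 0 with only the compared groups fitted or without those 2 replicates. At 24 h 1 gene was called higher in Raptor-deficient cells with only the compared groups, array weights, a replicate block or without those 2 replicates. From 8 h to 24 h in WT 1 gene was called lower with averaged probe sets or only the compared groups, and 20 were called higher without those 2 replicates. The 22 smaller responses at 8 h became 13 with only the compared groups. The 15 at 24 h became 9 without replicate 1 of both 24 h groups, and 1 response at 24 h was called larger there, with array weights and without the 2 replicates. The 2 larger changes from 8 h to 24 h became 1 with cyclic loess or median centring, 6 with only the compared groups or without the 2 replicates, 8 with array weights and 0 without replicate 1 of both 24 h groups.

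With the exact permutation test 0 site differences were called in each of the 8 comparisons that limma called and that it could test. Site differences at its smallest possible p, 0.0286, had an adjusted p of 0.0514. The lack of calls thus reflects the resolution of that test with 4 arrays a group. Of the genotype comparison at 24 h 1 was called with averaged probe sets or without replicate 1 of both groups, and of the Raptor-deficient response at 24 h 3 with averaged probe sets. The genotype difference in the response at 8 h gave 1 with only the compared groups or without the 2 replicates. That at 24 h gave 2 with only the compared groups and 0 with an intensity trend or without replicate 1 of both 24 h groups, and that from 8 h to 24 h gave 1 with array weights. With 1 array left out, the genes lower in unstimulated Raptor-deficient cells ranged from 1 to 3 and those higher from 0 to 1, those higher at 24 h from 0 to 1 and those lower in WT at 8 h from 0 to 1. Smaller responses at 24 h ranged from 8 to 19, larger ones from 0 to 1, and larger changes from 8 h to 24 h from 0 to 3. Site differences ranged from 0 to 2 between genotypes at 24 h, from 1 to 3 from 8 h to 24 h in WT, and for the difference of responses from 1 to 3 at 8 h, 0 to 2 at 24 h and 0 to 1 from 8 h to 24 h. A replicate block gave 33 rises in Raptor-deficient cells at 8 h instead of 31 and 14 smaller responses at 24 h instead of 15. Replicate numbers were not treated as pairing the samples in the main fit. The cause of these changes was not tested.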
